A study of Mus musculus with 4 samples.

Results

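The genes described here encode the tubulins and the enzymes that fold tubulin or modify it after translation. They were taken by gene symbol from the deposited table: α-, β-, δ- and ε-tubulins (Tuba, Tubb, Tubd, Tube), γ-tubulins (Tubg1, Tubg2), tubulin folding cofactors (Tbca to Tbce), tubulin tyrosine ligase (Ttl) and its relatives (Ttll), the polyglutamylase subunits Tpgs1 and Tpgs2, the deglutamylases (Agbl1 to Agbl5), the vasohibins (Vash) and the acetyltransferase Atat1. Of the 15733 protein-coding genes in the table, 42 matched, all on autosomes. Tubg2 and Agbl1 had no row in it, and the only β-tubulins with a row were Tubb2a, Tubb4b, Tubb5 and Tubb6. The study treated single-cell suspensions of mouse testis ex vivo for 12 h with 2.5 µM BMH21, a DNA-intercalating inhibitor of RNA polymerase I, or with the solvent DMSO (mock), and then sorted pachytene spermatocytes by their staining with a Hoechst DNA dye. There were 2 libraries of each condition, called biological replicates in the series' design text, with no strain, genotype or age given in the labels. The cells were outside the tubule during treatment, and in such bulk libraries fewer cells of a type and less RNA per cell cannot be told apart.

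Microtubules are hollow polymers of α/β-tubulin dimers. The chaperonin CCT folds each chain, and the cofactors TBCA to TBCE join α to β. Once polymerized, tubulin is marked mostly on its acidic C-terminal tail: TTLL enzymes add chains of glutamate or glycine, AGBL enzymes (also called CCPs) trim glutamates, vasohibins remove the terminal tyrosine of α-tubulin and TTL puts it back. ATAT1 acetylates lysine 40 of α-tubulin. In male germ cells microtubules form the meiotic spindle and later the manchette and the axoneme of the sperm tail, whose tubulin is heavily glutamylated and glycylated.

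The coding ends of the tubulins that led each family are shown first, with isotypes that differ at the modified position, because the modifiers described below act on the tail that these codons encode. Each line gives the last 15 codons before the stop, read from the GENCODE M21 transcripts, with the last codon in capitals.
Tuba3a: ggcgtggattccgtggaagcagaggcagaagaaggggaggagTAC
Tuba3b: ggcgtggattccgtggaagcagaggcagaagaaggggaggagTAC
Tuba4a: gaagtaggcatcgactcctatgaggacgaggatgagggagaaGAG
Tuba8: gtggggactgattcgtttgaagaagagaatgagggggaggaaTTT
Tubb4b: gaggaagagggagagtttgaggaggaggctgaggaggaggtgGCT
Tuba3a and Tuba3b were the same over these 15 codons. Both ended in a tyrosine codon, the residue that the vasohibins remove, and held 6 glutamate codons in the stretch. The coding sequence of Tuba4a ended in a glutamate codon and that of Tuba8 in another codon that does not encode tyrosine. Tubb4b held 10 glutamate codons of 15. Codon 40, counted from the start codon as 1, encoded lysine in Tuba3a, Tuba3b and Tuba4a, and not in Tuba8.

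Total counts ran from 30964370 to 41548269 per library. Levels are given in CPM (counts scaled to a common library size) with TMM factors, and levels of different genes are compared only in CPM per kilobase of exon. Late meiotic spermatocyte markers (13 with a row) summed to 8029 and 8180 CPM in mock and 8244 and 8448 CPM in BMH21. H1f6 alone of them was under 1 CPM. Of the 13, 5 rose, among them Sycp3 (125 to 172 CPM), and 5 fell, among them Piwil1 (772 to 692 CPM). Over all genes tested 16.5% were called higher and 12.5% lower (25.4% and 19.2% of genes with a mean of 100 CPM or more). The 12 spermatid markers, genes of the cells that assemble the sperm tail, summed to 417 and 418 CPM in mock and 436 and 439 CPM in BMH21. In edgeR 0 of them were called (2 higher at an unadjusted p under 0.05; 0 in DESeq2). Spermatogonial and early spermatocyte markers summed to 18.4 to 23.9 CPM per library, and each somatic list (Sertoli, Leydig, peritubular and vascular, blood and macrophage) to between 3.74 and 10.6 CPM. Of 6 spermatogonial and early genes tested, 1 rose (Sohlh2) and 2 fell (Zbtb16 and Kit). The call of Kit was lost in DESeq2, with the replicate block and with any 1 library left out, and that of Zbtb16 without mock replicate 2 and without BMH21 replicate 1. Among the Leydig markers Star fell from 8.97 to 6.34 CPM (edgeR adjusted p = 0.00785), a call lost without BMH21 replicate 1. The part of these cells in the results below was not tested.

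After BMH21 most members that passed the test were lower, by 4.48% to 35.8% of the mock mean. Of the 42 genes, 40 passed the filter on low counts, and 2 (Tubb2a and Tubb5) did not. Of the 40, 8 fell, 2 rose and 30 did not pass edgeR's quasi-likelihood test at a false discovery rate of 0.05 over 13793 genes. Over all genes tested the share called lower was 12.5% and the share called higher 16.5%, against 20% and 5% of these 40. Of the called genes of the whole table, 42.1% were called higher under upper quartile scaling, against 56.9% in the reported fit. The median log2 fold change was -0.06 over the 40 members and -0.00029 over all genes tested, and 27 of the 40 lay below 0. The median size of the log2 change, whatever its sign, was 0.13 for members and 0.18 for all genes. Among the abundant genes (a mean of 100 CPM or more) 4 of 12 members were called lower and 1 higher, against 19.2% and 25.4% of 2479 genes. Both BMH21 libraries lay below both mock libraries for 16 of the 40 (29.9% of all genes tested) and above them for 8 (30.9%).

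**Figure D1:**
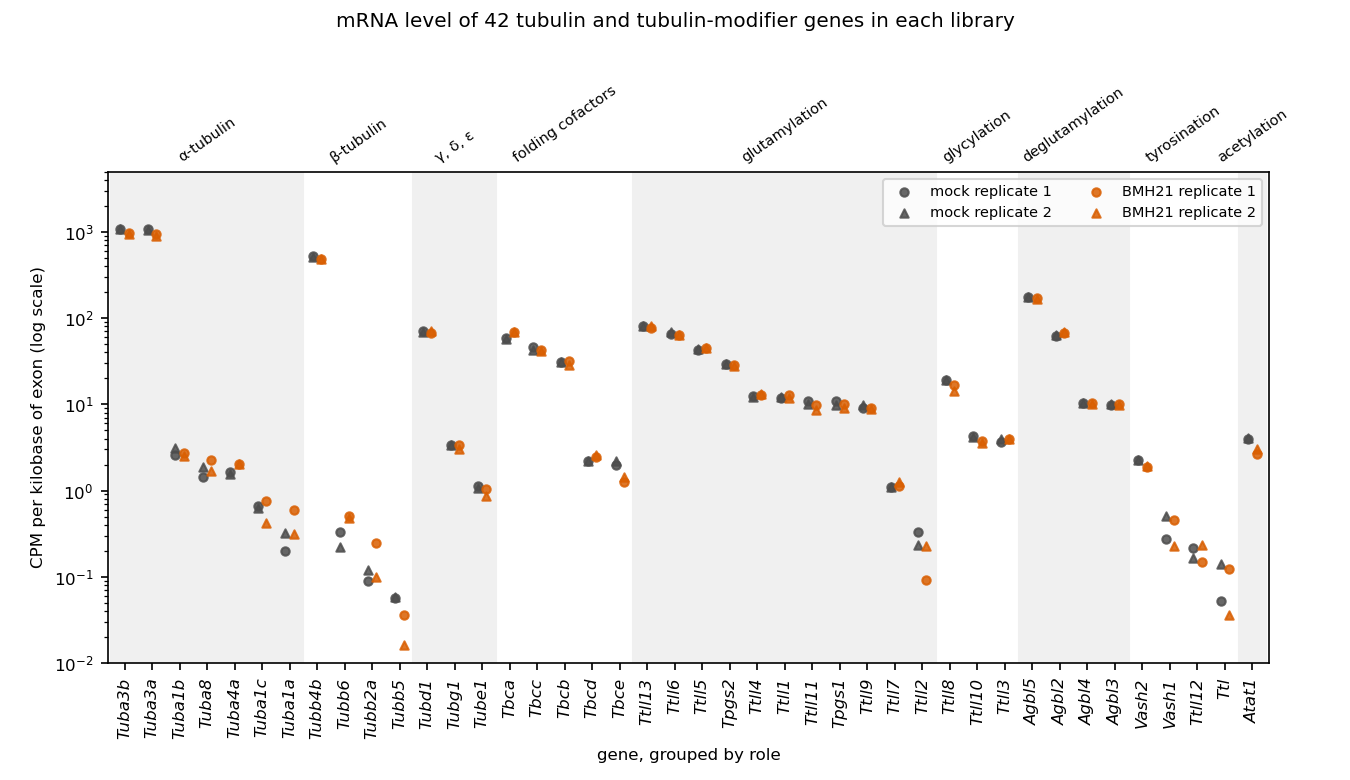
Level of each of the 42 genes in each library, in CPM per kilobase of exon on a log axis, grouped by role and ordered by the mock mean within a role. Circles are replicate 1 and triangles replicate 2. Tuba3b, Tuba3a and Tubb4b stand far above every other tubulin, and the tyrosination enzymes lie at the low end.

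Of the 7 α-tubulin genes with a row, 2 supplied almost all of the mRNA counted, and both fell. Tuba3b, on chromosome 6 (145615757 to 145621479, plus strand, GRCm38; ENSMUSG00000067338.7), and Tuba3a, also on chromosome 6 (125278274 to 125286042, minus strand; ENSMUSG00000067702.6), encode the testis form of α-tubulin. Tuba3b was at 1918 and 1915 CPM in mock and at 1735 and 1685 CPM in BMH21. Its mean fell by 10.8%, at -0.16 ± 0.02 (SE) on the log2 scale (edgeR adjusted p = 7.27e-11). Tuba3a was at 1622 and 1594 CPM in mock and 1441 and 1369 CPM in BMH21. It fell by 12.6%, at -0.19 ± 0.02 (SE) on the log2 scale (edgeR adjusted p = 4.25e-12). For both genes every BMH21 library lay below every mock library, and leaving out any 1 library left a log2 fold change of -0.19 to -0.15 for Tuba3b and of -0.23 to -0.16 for Tuba3a.

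Tuba3a and Tuba3b are close copies, and how reads were split between them is uncertain. Their coding sequences differed at 41 of 1353 aligned bases, and the translations did not differ. Of the 75-base windows of the Tuba3a transcript, 19.9% also occurred in Tuba3b. The part of the pair's counts that was given to Tuba3a was 45.8% and 45.4% in mock and 45.4% and 44.8% in BMH21. Per kilobase the genes were close to equal: Tuba3b made up 50.2% ± 0.27 of the α-tubulin level in mock and 50.7% ± 0.41 in BMH21, and Tuba3a 49.5% ± 0.30 and 48.9% ± 0.38 (SD, n = 2 each). A processed transcript on the opposite strand (4930417O13Rik) overlaps exons of Tuba3a, and the sources used here do not say whether reads were counted by strand.

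The other 5 α-tubulins were low, and none of them passed the edgeR test (1 of the 5, Tuba4a, at an unadjusted p under 0.05; 0 in DESeq2). Tuba1b, a main α-tubulin of dividing somatic cells, was at 4.86 and 5.86 CPM in mock and 5.07 and 4.72 CPM in BMH21. Its close relatives Tuba1a and Tuba1c were at 0.467 and 1.47 CPM in mock. Of the 75-base windows of the 3 Tuba1 genes, 56.7% to 78.3% occur in transcripts of other genes, so their levels are uncertain. Tuba4a, whose coding sequence ends in a glutamate codon, was at 6.10 and 5.79 CPM in mock and 7.52 and 7.61 CPM in BMH21. The groups did not overlap, but the difference of 0.35 ± 0.16 (SE) on the log2 scale did not pass (edgeR adjusted p = 0.100), and Tuba4a shares 47.2% of its windows with Stk16 on the opposite strand. Tuba8, an isotype known from testis and muscle, was at 3.24 and 4.29 CPM in mock and 5.13 and 3.83 CPM in BMH21, with overlapping groups. Together these 5 genes gave under 1% of the α-tubulin level in each library.

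Of the β-tubulin level summed over the 4 genes with a row, Tubb4b made up 99.9% in mock and 99.9% in BMH21. Tubb4b (chromosome 2, 25222160 to 25224702, minus strand; ENSMUSG00000036752.5) encodes a β-tubulin abundant in cilia and flagella. It was at 1084 and 1063 CPM in mock and 1023 and 1015 CPM in BMH21, and its mean fell by 5.05%. The log2 fold change was -0.07 ± 0.02 (SE), and edgeR gave an adjusted p of 0.00449. The groups did not overlap, but without mock replicate 1 the call was lost (log2 fold change -0.06, edgeR adjusted p = 0.203). Of its 75-base windows 40.9% are shared with other annotated transcripts, mostly the pseudogene Tubb4b-ps1, and the gene Fam166a overlaps its exons on the opposite strand.

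The other β-tubulins in the table were close to the detection limit. Tubb6 was at 0.810 and 0.544 CPM in mock and 1.24 and 1.16 CPM in BMH21 (0.80 ± 0.47 on the log2 scale, edgeR adjusted p = 0.208). Tubb2a had 6 and 6 counts in mock and 13 and 6 in BMH21. Tubb5, the common β-tubulin of somatic cells, had 8 and 6 counts in mock and 4 and 2 in BMH21. For Tubb5 and Tubb6, 0 windows of 75 bases were shared with another annotated transcript. Other copies in the genome were not searched for.

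Summed per kilobase over the genes with a row, α-tubulin was at 2162 and 2143 in mock and 1941 and 1863 in BMH21 (CPM per kilobase). Its mean fell by 11.6%. For β-tubulin the sums were 519 and 509 in mock and 491 and 487 in BMH21, and the mean fell by 4.99%. The ratio of α to β was 4.16 and 4.21 in mock and 3.95 and 3.83 in BMH21. With 2 libraries against 2 an exact two-sided permutation test cannot go below p = 0.333, which is what each of these 3 comparisons gave. The size of the ratio depends on the lengths used: with the longest transcript in place of all exons it was 3.20 in mock and 2.98 in BMH21. It may also depend on shared sequence. Of 75-base windows, 40.9% were shared with other transcripts for Tubb4b, 19.9% for Tuba3a and 18.9% for Tuba3b. How multi-mapped reads were treated is not given.

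The stretches of 130 bases before the RefSeq start of Tuba3a, Tuba3b and Tubb4b follow. They are shown because these 3 genes supplied nearly all the α- and β-tubulin mRNA that was counted and fell together. Every CCAAT on the strand of the gene is in capitals. Tuba3a lies at chr6:125286082-125286211 (minus strand), Tuba3b at chr6:145615833-145615962 (plus strand) and Tubb4b at chr2:25224703-25224832 (minus strand) of GRCm38.p6. The GENCODE start of Tuba3b lies upstream of its RefSeq start.
Tuba3a: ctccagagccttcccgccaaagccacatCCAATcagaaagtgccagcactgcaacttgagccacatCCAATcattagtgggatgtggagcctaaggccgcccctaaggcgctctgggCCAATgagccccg
Tuba3b: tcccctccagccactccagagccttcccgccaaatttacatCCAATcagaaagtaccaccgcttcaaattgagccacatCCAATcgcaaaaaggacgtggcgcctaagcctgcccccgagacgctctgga
Tubb4b: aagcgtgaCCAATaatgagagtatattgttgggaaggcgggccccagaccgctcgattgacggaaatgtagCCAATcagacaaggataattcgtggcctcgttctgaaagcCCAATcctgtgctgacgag
CCAAT is the core of the site bound by the factor NF-Y. It began 102, 64 and 13 bases before the start in Tuba3a, 89 and 51 bases before it in Tuba3b, and 122, 59 and 19 bases before it in Tubb4b. Over the 250 bases before the start, Tuba3a had 3 such boxes, Tuba3b 2 and Tubb4b 5, all on the strand of the gene. At least 2 on that strand were found in 3.59% of 32851 RefSeq promoter windows of this length and in 6 of the 37 members matched there: these 3, Agbl5, Tbcc and Tubb5. A member counted when any of its windows met the rule, and some, such as Agbl5, have several, so the units are unlike. The 3 genes were picked for their level and their fall, so the share over all windows is no test of them. Of the other members with such boxes, Agbl5 was called lower, Tbcc was not called and Tubb5 was not tested. The windows of Tuba3a and Tuba3b were 61.3% identical, and those of Tuba3a and Tubb4b 44.3%.

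On either strand CCAAT occurred in 19 of the 37 members and in 33.8% of all windows. Here too members are genes with a match in any of their windows, while the percentages are of single windows. The other motifs searched on both strands were the cAMP response element TGACGTCA (2 members; 1.55% of all windows), TATAAA (2; 12.4%), the MYB core CAACTG (6; 11.1%) and GTTGCC, an arm of the X-box bound by RFX factors (10; 10.4%). These matches are descriptions of the letters and not of binding.

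The γ-, δ- and ε-tubulins serve microtubule nucleation and centrioles. In edgeR 0 of the 3 tested were called, where 12.5% of all genes tested were called lower and 16.5% higher. Of the 3, 0 had an unadjusted p under 0.05 in edgeR and 0 were called in DESeq2. Tubd1, the δ-tubulin gene, was the most abundant of them, at 145 and 143 CPM in mock and 140 and 145 CPM in BMH21 (-0.02 ± 0.04 on the log2 scale, edgeR adjusted p = 0.796). Tubg1, which encodes the γ-tubulin that starts new microtubules, was at 7.70 and 7.62 CPM in mock and 7.67 and 6.80 CPM in BMH21 (-0.08 ± 0.15 on the log2 scale, edgeR adjusted p = 0.753). Tube1, the ε-tubulin gene, was at 8.87 and 8.48 against 8.21 and 6.83 CPM. The ranges of the groups overlapped for Tubd1 and Tubg1 and not for Tube1.

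Among the 5 folding cofactors, 1 fell and 1 rose, where 12.5% of all genes tested were called lower and 16.5% higher. Tbce, which binds α-tubulin (chromosome 13, 13997949 to 14039638; ENSMUSG00000039233.13), had the largest change of the called members. It was at 9.01 and 10.05 CPM in mock and 5.65 and 6.59 CPM in BMH21. Its mean fell by 35.8%, at -0.63 ± 0.15 (SE) on the log2 scale (edgeR adjusted p = 6.64e-04). Tbce shares 10.1% of its 75-base windows with B3galnt2, which runs on the opposite strand. Tbca, the cofactor that holds β-tubulin (chromosome 13, 94788910 to 94842922; ENSMUSG00000042043.7), was at 47.7 and 47.0 CPM in mock and 56.4 and 55.6 CPM in BMH21. It rose by 18.4% in the mean, at 0.24 ± 0.06 (SE) on the log2 scale (edgeR adjusted p = 0.00181). Of its 75-base windows 14.4% occur in transcripts of other genes. Tbcd, also a β-tubulin cofactor, lay higher in both BMH21 libraries (17.9 and 18.0 against 19.99 and 20.97 CPM) without passing the test (edgeR adjusted p = 0.153). Tbcc, which stimulates GTP hydrolysis in the cofactor complex, was at 53.1 and 49.4 CPM in mock and 50.2 and 48.1 CPM in BMH21, with overlapping groups (-0.06 ± 0.06 on the log2 scale, edgeR adjusted p = 0.535). Tbcb, which takes up α-tubulin, also had overlapping groups, and its mean went from 44.5 to 43.5 CPM.

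**Figure D2:**
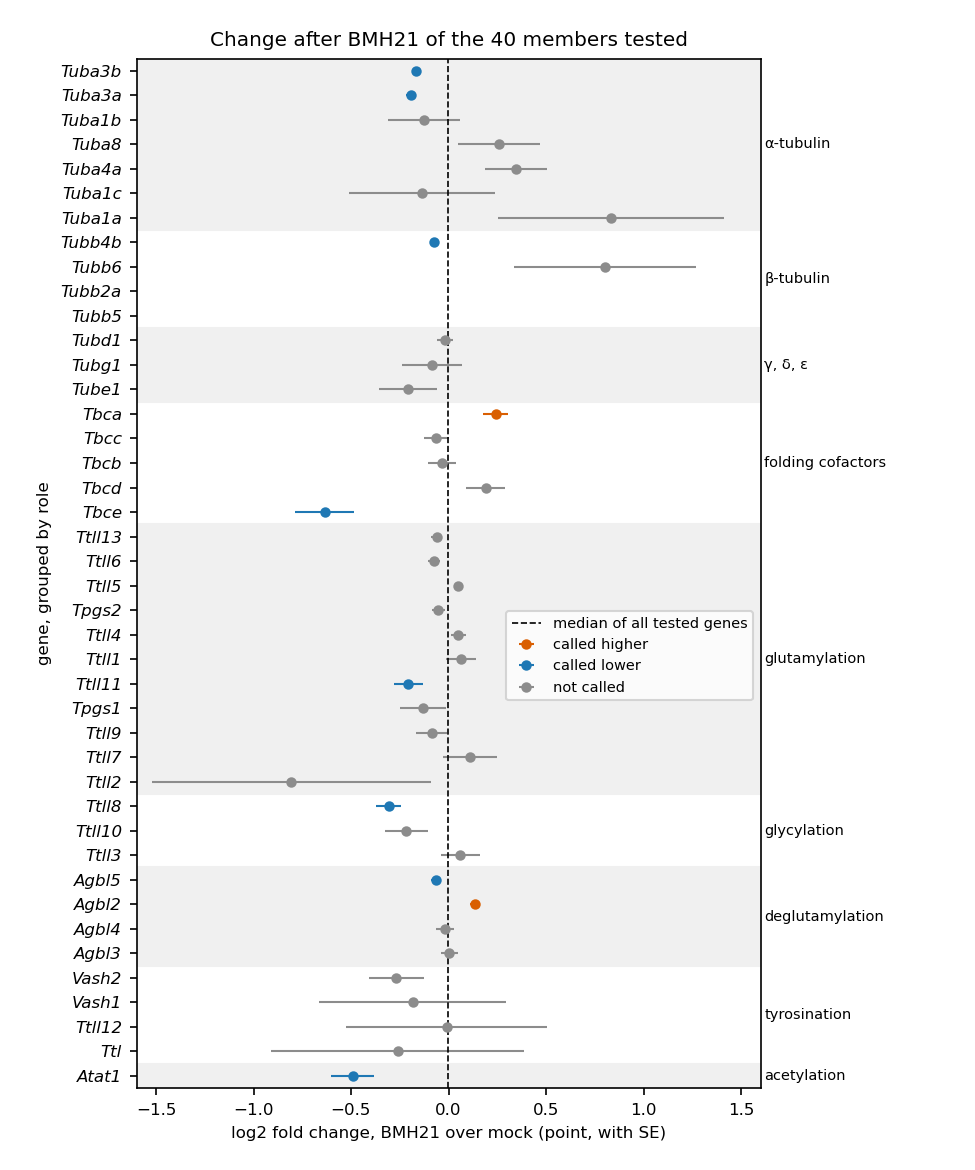
Log2 fold change of BMH21 over mock for each member tested, with its SE as a bar and the median of all genes tested as a dashed line. Blue points were called lower and orange points higher; Tubb2a and Tubb5 have no point because they did not pass the filter. Most called changes are within 0.5 of 0, and Tbce (-0.63) lies farthest from it among them.

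The enzymes that build glutamate chains formed the largest group. Of its 11 members 1 fell and 10 did not pass the test, where 12.5% of all genes tested were called lower and 16.5% higher. Per kilobase the most abundant were Ttll13 (81.8 in mock), Ttll6 (66.8), both chain-elongating, and Ttll5 (43.0), which starts chains. Ttll11, an elongating enzyme (chromosome 2, 35751241 to 35979913; ENSMUSG00000026885.14), was at 43.7 and 41.1 CPM in mock and 39.5 and 34.3 CPM in BMH21. Its log2 fold change was -0.21 ± 0.07 (SE), and edgeR gave an adjusted p of 0.0296. DESeq2 did not call it (log2 fold change -0.20, adjusted p = 0.112), nor did the authors' deposited table (adjusted p = 0.134). The edgeR call was also lost without mock replicate 1 (-0.16, adjusted p = 0.253) and without BMH21 replicate 2 (-0.11, adjusted p = 0.439).

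Ttll6 was at 253 and 263 CPM in mock and 245 and 244 CPM in BMH21 (-0.08 ± 0.03 on the log2 scale, edgeR adjusted p = 0.0636), and Ttll13 at 354 and 352 against 332 and 346 CPM (-0.06 ± 0.03 (SE), adjusted p = 0.114). Their groups did not overlap. Both genes, and Tpgs2, were called lower under upper quartile scaling. Ttll5 was at 676 and 690 CPM in mock and 709 and 705 CPM in BMH21 (0.05 ± 0.02 (SE), edgeR adjusted p = 0.0995). The polyglutamylase complex of the catalytic subunit TTLL1 and the subunits TPGS1 and TPGS2 had 0 called members in edgeR and in DESeq2: Ttll1 was at 34.8 CPM in mock and 36.3 in BMH21, Tpgs1 at 14.5 and 13.3, and Tpgs2 at 201 and 194. Of the rest, Ttll4 (144 and 149 CPM), which starts chains, Ttll9 (33.1 and 31.1 CPM), known from the sperm tail, and Ttll7 (9.18 and 9.90 CPM), which acts on β-tubulin, did not pass the test. Ttll2 stood below 1 CPM in every library, and 65.0% of its windows occur in other annotated transcripts.

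Of the 3 glycylases 1 fell, where 12.5% of all genes tested were called lower. Ttll8, which starts glycine chains (chromosome 15, 88890633 to 88954418; ENSMUSG00000022388.15), was at 65.9 and 65.0 CPM in mock and 57.5 and 48.5 CPM in BMH21. The mean fell by 19.0%, at -0.31 ± 0.06 (SE) on the log2 scale (edgeR adjusted p = 7.05e-05). The BMH21 libraries lay apart from each other by more than the mock libraries did, and without BMH21 replicate 2 the log2 fold change was -0.19, against -0.43 without BMH21 replicate 1. A further annotated transcript, AC117700.1, overlaps its exons on the same strand. Ttll3, the other gene for a chain-starting glycylase, was at 18.5 and 19.9 CPM in mock and 20.2 and 19.9 CPM in BMH21, with overlapping groups (0.06 ± 0.10 (SE), edgeR adjusted p = 0.716). Ttll10, which elongates glycine chains, was at 17.1 and 16.6 against 15.1 and 14.01 CPM and did not pass the test (-0.22 ± 0.11 (SE), adjusted p = 0.136). Arpc4 overlaps exons of Ttll3 on the same strand. That Ttll8 changed differently from Ttll3 was not tested.

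Of the 4 deglutamylases 1 fell and 1 rose, where 12.5% of all genes tested were called lower and 16.5% higher. Agbl5, which removes the glutamate at the branch point of a chain (chromosome 5, 30888694 to 30906965, ENSMUSG00000029165.18), stood at 176 CPM per kilobase in mock. Among the 42 genes only Tuba3a, Tuba3b and Tubb4b stood higher. Agbl5 was at 1253 and 1224 CPM in mock and 1199 and 1167 CPM in BMH21, and its mean fell by 4.48%. The log2 fold change was -0.07 ± 0.02 (SE), and edgeR gave an adjusted p of 0.0112. Without mock replicate 1 the call was lost (-0.05, adjusted p = 0.322). The short gene Ost4 overlaps its exons on the opposite strand.

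Agbl2, whose enzyme shortens glutamate chains (chromosome 2, 90782727 to 90834437; ENSMUSG00000040812.15), was at 412 and 420 CPM in mock and 451 and 463 CPM in BMH21. Its mean rose by 9.81%, at 0.14 ± 0.03 (SE) on the log2 scale (edgeR adjusted p = 3.40e-05). The groups did not overlap, and no other annotated gene overlaps its exons. Agbl3 (112 CPM in mock and 112 in BMH21) and Agbl4 (99.2 and 98.0 CPM) had overlapping groups.

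Genes of the tyrosination cycle were low. In edgeR 0 of the 4 tested were called, where 12.5% of all genes tested were called lower and 16.5% higher. Of the 4, 0 had an unadjusted p under 0.05 in edgeR and 0 were called in DESeq2. Vash2, a tyrosine-removing carboxypeptidase, led them at 9.84 and 9.76 CPM in mock and 8.0 and 8.29 CPM in BMH21 (-0.27 ± 0.14 on the log2 scale, edgeR adjusted p = 0.155). Its relative Vash1 was at 0.715 and 1.31 CPM in mock and 1.18 and 0.594 CPM in BMH21 (-0.18 ± 0.48 on the log2 scale, edgeR adjusted p = 0.837). Ttl, the ligase that restores tyrosine, was at 0.310 and 0.832 CPM in mock and 0.725 and 0.216 CPM in BMH21 (-0.26 ± 0.65 on the log2 scale, edgeR adjusted p = 0.829). The ligase-like gene Ttll12 had 37 and 21 counts in mock and 20 and 35 in BMH21. The SEs of Vash1, Ttl and Ttll12 were 0.48 to 0.65 on the log2 scale. A change must lie well beyond its SE to be called: Tuba4a, at 0.35 ± 0.16 (SE), was not. At this depth only changes of these genes well beyond their SEs could be detected.

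Atat1, the α-tubulin acetyltransferase gene (chromosome 17, 35897595 to 35910075; ENSMUSG00000024426.18), fell. It was at 18.0 and 18.8 CPM in mock and 12.1 and 14.1 CPM in BMH21, so the groups did not overlap. The mean fell by 29.1%, at -0.49 ± 0.11 (SE) on the log2 scale (edgeR adjusted p = 2.65e-04). Leaving out any 1 library gave -0.61 to -0.39, each time with the call kept. An annotated antisense gene, Gm16279, overlaps its exons.

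**Figure D3:**
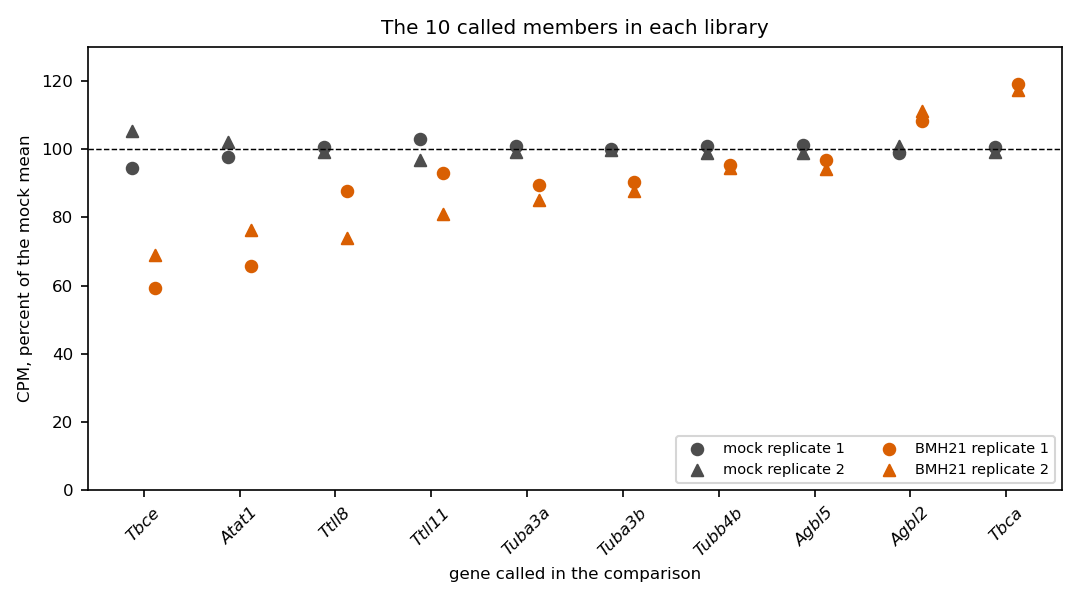
CPM of each of the 10 called members in each library, as percent of that gene's mock mean, in order of the log2 fold change. Gray symbols are mock and orange ones BMH21, with circles for replicate 1 and triangles for replicate 2. In all 10 genes the BMH21 libraries lie on 1 side of the mock libraries, and the distance is small for Tubb4b and Agbl5. The 10 were picked by their calls, so this is no added support. Over all genes tested both BMH21 libraries lay above mock in 30.9% and below it in 29.9%.

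Other genes that handle tubulin were read from lists of the pathway. All 9 genes of the chaperonin CCT were tested: 4 rose (Cct2, Cct8, Tcp1 and Cct6a) and 0 fell, at a median log2 fold change of 0.06. Of all genes tested 16.5% were called higher and 12.5% lower. All 9 had a mean above 100 CPM, and of genes with a mean of 100 CPM or more 25.4% were called higher and 19.2% lower. The calls of Tcp1 and Cct6a were lost under upper quartile scaling, and that of Tcp1 also without mock replicate 2. Cct2 went from 259 and 253 CPM to 306 and 300 CPM (edgeR adjusted p = 8.69e-10). Of the 6 prefoldin genes, whose complex hands nascent tubulin to CCT, 3 rose and 0 fell in edgeR, and 1 rose in DESeq2. The largest change was in the X-linked Vbp1, at 1.001 and 0.448 CPM in mock and 56.0 and 59.1 CPM in BMH21. The autosomal Pfdn5 and Pfdn2, at log2 fold changes of 0.11 and 0.23, passed narrowly (edgeR adjusted p = 0.0335 and 0.04997). Neither was called in DESeq2, under upper quartile scaling or with any 1 library left out, and Pfdn2 was called in 1 of 10 alternatives. Myg1 and Klhdc9 overlap their exons.

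In the γ-tubulin ring complex, the template of new microtubules, 1 of 8 genes rose and 2 fell (1 and 1 in DESeq2). For this list and the severing enzymes, the shares over all genes tested were 16.5% higher and 12.5% lower. Tubgcp4 went from 106 and 107 to 84.1 and 82.0 CPM (log2 fold change -0.36, edgeR adjusted p = 4.14e-09), with Trp53bp1 and Zscan29 overlapping its exons on the opposite strand. Tubgcp5 rose from 3.48 and 4.70 to 8.06 and 8.58 CPM, and Tubgcp3 fell by 0.33 on the log2 scale, a call lost in DESeq2, without mock replicate 1 and without BMH21 replicate 1. Of 7 severing enzyme genes tested, whose enzymes cut glutamylated microtubules more readily, Katnbl1 rose from 0.906 and 1.02 to 7.03 and 6.59 CPM and Katnal2 fell by 0.13 on the log2 scale, a call lost without mock replicate 1 and without BMH21 replicate 1. An annotated gene, Gm21985, overlaps Katnbl1 on the same strand.

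Microtubule-associated proteins and destabilizers went both ways, with 6 of 20 higher and 4 lower (4 and 3 in DESeq2). For this list and the partners below, 16.5% of all genes tested were called higher and 12.5% lower. The X-linked Map7d2 rose from 0.0477 and 0.128 to 8.88 and 10.1 CPM, the autosomal Map7d1 from 13.0 and 11.7 to 35.9 and 36.3 CPM, and Ckap5, a microtubule polymerase gene, from 58.5 and 64.0 to 79.2 and 81.3 CPM. Of 10 partners of folding and modification, 2 rose (Tbcel and Arl2) and 1 fell (Tbccd1); the call of Arl2 held in 4 of 10 alternatives and not in DESeq2. Tbcel, a relative of Tbce, went from 134 and 135 to 149 and 153 CPM (edgeR adjusted p = 3.86e-04).

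**Figure D4:**
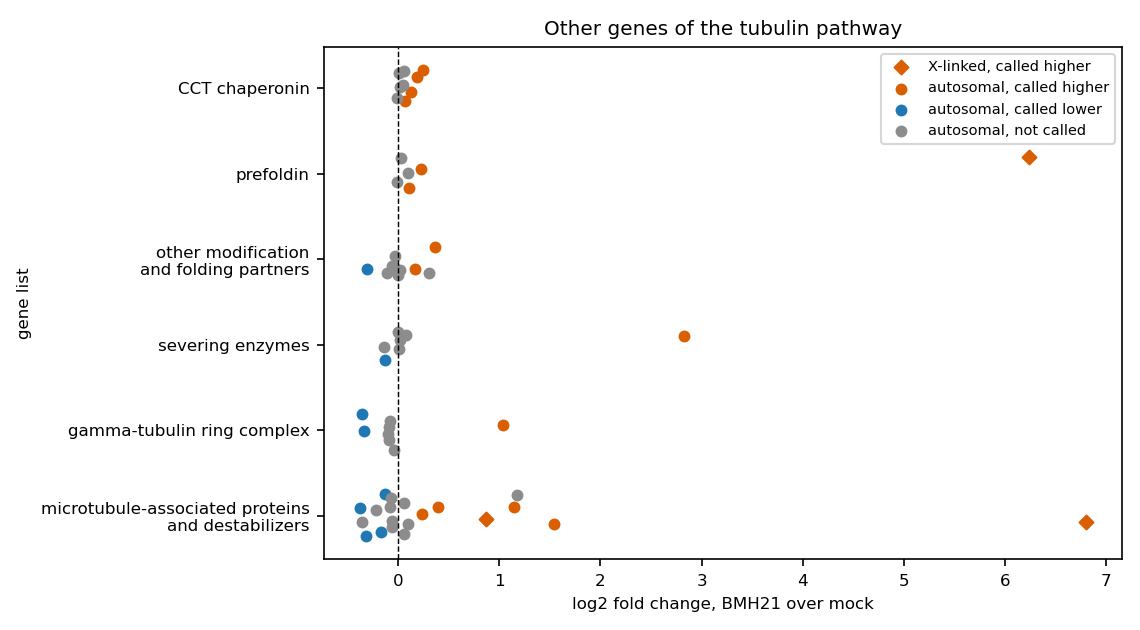
Log2 fold change of BMH21 over mock for the tested genes of 6 pathway lists; height within a list carries no value. Diamonds are X-linked genes, circles autosomal ones, blue points were called lower and orange ones higher. The X-linked Vbp1 and Map7d2 lie above 6, and most autosomal genes lie near 0.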

How the data were processed

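Per the labels' protocols, TRIzol was used for RNA extraction and a kit that keeps strand for mRNA libraries. The submitters' processing notes list mm10 as the build and, with no settings, the tools DESeq2, featureCounts, SAMtools, STAR and fastp. How strand and multi-mapped reads were treated is not given in the sources used. The authors deposited raw read counts per gene and library, from which all tests here start. The authors also deposited size-factor-normalized signal values, each a count divided by a factor of its library; they entered no test. The log2 fold changes and adjusted p-values in the authors' deposited table carry DESeq2's column names, per the file headers; DESeq2 on the counts came within 2.83e-05 of these log2 values.

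Counts were tested in R 4.3.3 with edgeR 4.0.16: filterByExpr with a minimum count of 10, TMM scaling, the quasi-likelihood fit with group alone, and Benjamini-Hochberg adjustment over 13793 genes. The SE is the log2 fold change divided by the square root of F, an approximation. The common biological coefficient of variation was 4.09%. Replicates differed beyond counting noise: the chi-square statistic divided by its degrees of freedom was 3.23 (mock) and 3.78 (BMH21). With 2 libraries a group, p-values draw on all genes for the spread. The count test was tested on simulated data with the same spread for all genes. It recovered 29 of 50 genes changed 1.25-fold and 47 of 50 changed 1.5-fold, with 2 false calls among 178. Changes under 1.25-fold, the size of most called here, were not simulated. Alternatives were DESeq2 1.42.0, other scalings and filters, the replicate number as a block and leaving out each library.

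Gene positions and exon lengths are those of GENCODE M21 on GRCm38, matched by identifier for all 42 genes; positions in the table differed from it for all but 369 of 15670 genes and were not used. Promoter windows are RefSeq's on GRCm38.p6. Windows of 75 bases were matched exactly, on both strands, to all GENCODE M21 transcripts of other genes. Sequences were aligned with Biopython 1.88.

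The genes and lists were chosen with earlier results of these data known. Named with full values are the called members, the 2 most abundant per kilobase of each role, and Atat1, Ttl, Vash1 and Vash2; from each pathway list, up to 3 called genes with the smallest p. Other genes named were chosen after their values were seen.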

Additional observations from a re-analysis of the deposited data

How the results depend on the processing

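The 2 members called higher stayed at 2 under every alternative run. The 8 called lower became 7 in DESeq2, 8 with RLE size factors, with no filter and with the replicate block, 9 with the stricter filter (a mean of at least 5 CPM) and 11 under upper quartile scaling, and 5 to 8 when 1 library was left out. The count of 5 was without mock replicate 1, where Tubb4b, Agbl5 and Ttll11 lost their calls; the other 7 called members kept theirs under every alternative. Same-numbered libraries deviated from their group means with a correlation of 0.012 over genes. With 4 libraries this value cannot show whether same-numbered libraries were prepared together. The block changed no call of a member. Upper quartile scaling moved the log2 fold change of all genes by a median of -0.05, and the added calls were Ttll6, Ttll13 and Tpgs2. Without gene lengths Tuba3b made up 54.1% of α-tubulin in mock and 54.6% in BMH21, and Tubb4b 99.9% of β-tubulin in mock. Signs turned only in genes that were not called. For Agbl3 the log2 fold change turned to -0.041 under upper quartile scaling and -0.00043 with the stricter filter. With 1 library left out, log2 fold changes that crossed 0 ranged from -0.017 to 0.023 for Agbl3, from -0.12 to 0.052 for Tbcb, from -0.37 to 0.27 for Ttll12, from -0.049 to 0.0071 for Tubd1, from -0.75 to 0.30 for Vash1, from -0.26 to 0.0098 for Tuba1b, from -1.36 to 0.58 for Ttl, from -0.60 to 0.22 for Tuba1c and from -0.042 to 0.0018 for Agbl4. The cause was not tested. Depth limits the 7 members under 1 CPM in mock, and 2 libraries a group limit every p-value.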
